A study of Mus musculus with 6 samples.

Results

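The factors that start and extend protein chains on cytosolic ribosomes were examined in whole mouse brain with and without TRMT1L, a relative of the tRNA methyltransferase TRMT1. They were the protein-coding autosomal genes whose symbols start with Eif1 to Eif6, Eef1 or Eef2, without the eIF2 kinases Eif2ak1 to Eif2ak4 and 3 further genes. The rule used names and annotation and no measured value, and it gave 58 of the 55450 annotated genes and of 20807 protein-coding autosomal genes. Another 21 genes with such symbols were no members: 10 were pseudogenes, 3 were protein-coding on X or Y, 1 was noncoding on X, and 7 were left out by name. Long RNA was sequenced from 3 wild-type (WT) and 3 TRMT1L knockout (KO) brain libraries, labelled as biological triplicates. The labels give no knockout allele, strain, age, sex, litter, treatment or sequencing batch for either genotype, and they do not say whether 1 library is 1 animal. The p-values therefore measure the spread between these libraries.

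Translation starts when eIF2, loaded with initiator tRNA, joins eIF1, eIF1A, eIF3 and eIF5 on the small ribosomal subunit, and eIF4F (the cap-binding protein eIF4E, the scaffold eIF4G and the helicase eIF4A) brings that complex to the mRNA cap. Elongation then cycles between eEF1A, which delivers each aminoacyl-tRNA, and eEF2, which moves the ribosome on by a codon. Several factors exist as a general and a neuron-rich form. eEF1A2 takes over from eEF1A1 in mature neurons and in muscle, and eIF5A2 and eIF4A2 are known for their expression in brain.

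Counts per library ran from 31201119 to 36145961 in genes. Trmt1l, the targeted gene, was at 35.1, 33.0 and 35.2 CPM (counts scaled to the library total after TMM adjustment) in WT libraries 1 to 3 and at 2.68, 3.0 and 2.93 CPM in KO libraries 1 to 3, so the labels held. All 5 neuronal markers were well expressed, with a summed level of 3426 to 3570 CPM in WT and 3292 to 3498 CPM in KO. Of 7 muscle markers 6 were under 1 CPM on average over the 6 libraries. The 4 choroid plexus markers were the only one of 8 marker lists whose summed level did not overlap, at 294 to 346 CPM in WT and 352 to 422 CPM in KO. Most of this sum was Ttr, at 263 to 317 CPM in WT and 320 to 384 CPM in KO. Ttr and Kcne2 were separated, while Folr1 and Kl overlapped. Oligodendrocyte markers summed to 3308 to 3712 CPM in WT and 2812 to 3376 CPM in KO, microglial markers to 123 to 151 and 115 to 139 CPM, and astrocyte markers to 559 to 600 and 568 to 657 CPM. Single markers of several lists had small p-values: 3 of 4 astrocyte markers, 2 of 4 for choroid plexus, and 1 each for oligodendrocytes, microglia, blood and muscle had an unadjusted p under 0.05. The 3 astrocyte markers went opposite ways, with log2 fold changes of -0.17 for Aqp4, 0.18 for Aldh1l1 and 0.45 for Gfap. All 4 oligodendrocyte, all 3 microglial and all 4 tested muscle markers had a KO mean below the WT mean. All 4 choroid plexus and all 5 blood markers had a KO mean above it. Single libraries also stood apart, as blood markers summed to 109 to 149 CPM in WT but 247, 98.3 and 181 CPM in KO libraries 1 to 3, and the astrocyte gene Gfap was at 248 CPM in KO library 3 and at 115 to 140 CPM in the other libraries. The part of these shifts in the results on translation factors was not tested. Reads that mapped to several places, which the tables count apart from the genes, made up 4.61% to 5.16% of mapped reads in WT and 5.25% to 5.60% in KO. Mapped reads in no gene made up 50.3% to 52.2% in WT and 48.6% to 49.8% in KO. Ambiguous reads made up 0.784% to 0.808% in WT and 0.863% to 0.909% in KO. For each of these classes of reads the genotypes did not overlap. Their part in the results was not tested either.

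No initiation or elongation factor passed the test between KO and WT brain, and most differed by a few percent. Of 57 members tested, 36 had a KO mean above the WT mean and 21 below it, and 40 lay within 0.1 on the log2 scale. The factors with the smallest p-values were elongation factors (Eef2, Eef1d, Eef1a2 and Eef1g) and the initiation factors Eif3g, Eif6 and Eif1. In each of these 7 every KO library was above every WT library. The 7 were picked by p-value from the same libraries, so this separation is no further support. None of the 7 values exceeded 0.22 on the log2 scale, which is 16.2% for Eef1d. In bulk tissue, fewer cells of a type and less RNA per cell cannot be told apart.

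With edgeR's quasi-likelihood test and Benjamini-Hochberg adjustment over 21237 genes, 0 of 57 members had an adjusted p under 0.05, where 0.00942% of all genes did. limma-voom also called 0 members, and DESeq2 called 0 of those to which it gave an adjusted p. It gave none to 25 of the 57, Eif3g and Eif6 among them, which could therefore not be called. At an unadjusted p under 0.05, 7 members were higher in KO against 4.54% of all genes, and 0 were lower against 3.38%. Complete separation of the libraries with KO above WT was seen in 13 members (22.8%), against 7.46% of all genes, and with KO below WT in 1 member (1.75%), against 6.97%. Among the 14677 protein-coding autosomal genes tested, which is the class the members come from, 6.05% were higher at an unadjusted p under 0.05 and 9.505% were separated upward. The median log2 fold change was 0.035 over the members, 0.016 over that class and 0.00013 over all genes, and the share with a KO mean above WT was 63.2%, 56.2% and 50.1%. When counts were corrected for the GC content of each gene's transcript, 46 members (80.7%) lay above 0 against 50.8% of all genes, and the 7 became 2, Eef1d and Eif1, where 2.18% of all genes were higher at an unadjusted p under 0.05. With no filter on low counts, 43 of 58 members (74.1%) lay above 0 against 47.5% of all genes, and 2 were called, Eef2 and Eef1d, among 298 genes called in all, where the main fit called 2. For the GC correction and for no filter, shares of the protein-coding autosomal class were not computed.

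**Figure D1:**
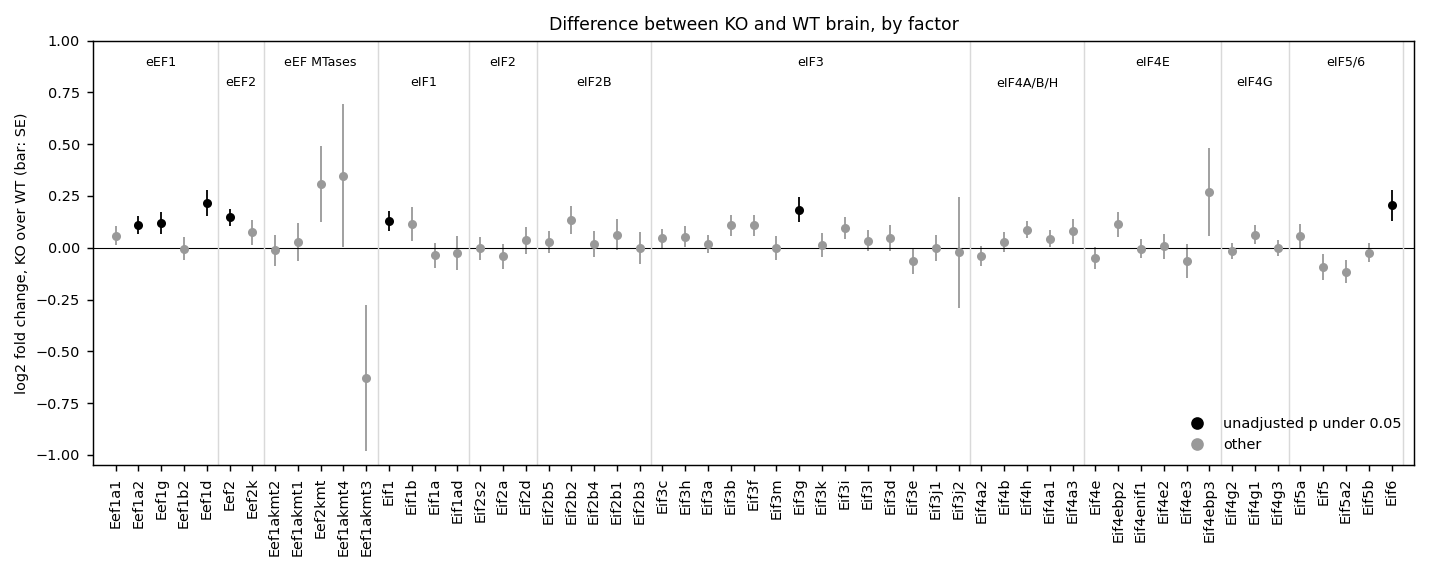
Log2 fold change, KO over WT, of the 57 translation factors tested (points) with the standard error (bars), grouped by role; black points have an unadjusted p under 0.05. Most points sit within 0.1 of the zero line, all 7 black points are above it, and the widest bars belong to the weakly expressed Eef1akmt3, Eef1akmt4, Eif3j2 and Eif4ebp3.

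The level of a factor was given as CPM per kilobase of exon, so that genes of different length could be compared. The genes of the tRNA carrier and the translocase of elongation stood above all initiation factors. Eef1a1 was at 486, 529 and 484 CPM per kb in WT and at 524, 502 and 534 CPM per kb in KO. Eef1a2 was at 326, 309 and 336 CPM per kb in WT and at 341, 358 and 349 CPM per kb in KO. Eef2 followed, at 281, 261 and 266 CPM per kb in WT and at 303, 294 and 297 CPM per kb in KO. In all 6 libraries the order was Eef1a1, Eef1a2, Eef2, with no overlap between the ranges of these 3 genes per kb of all exons. With the longest coding transcript as length their means were 708, 336 and 305 CPM per kb, and the ranges of Eef1a2 and Eef2 overlapped. Per kb of all exons the next level, that of the helicase gene Eif4a2, was 82.9 CPM over the 6 libraries. It was followed by Eef1g at 60.8, Eif1 at 59.5, Eif5a at 53.2, Eif4g2 at 50.2 and Eif3c at 49.0 CPM per kb, neighbours whose library ranges partly overlapped. Below the first 4 genes this order depends on the length used: per kb of the longest coding transcript, Eif4a2 was at 163 CPM, Eif1 at 94.4, Eif5a at 88.001, Eef1g at 84.8, Eif4h at 79.8, Eif4a1 at 79.4 and Eif4g2 at 63.8. Eif3c, at 50.8, then came after Eif4g1 at 56.1, Eif5 at 53.3 and Eif4b at 51.9. Eef1a1, Eef1a2 and Eef2 alone held 36.63% to 37.39% of all member counts in WT and 38.02% to 38.73% in KO.

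**Figure D2:**
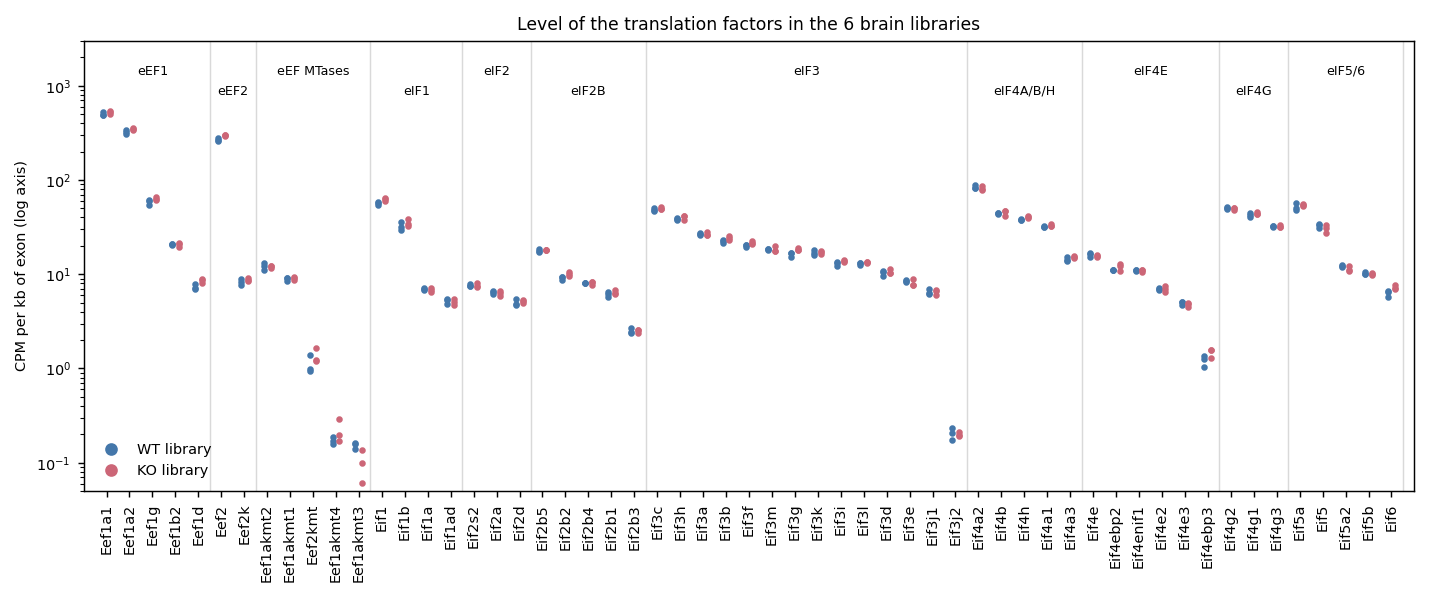
Level of the translation factors in CPM per kilobase of exon on a log axis, 3 WT libraries (blue) and 3 KO libraries (red) for each gene, grouped by role and sorted by level. Eef1a1, Eef1a2 and Eef2 lie near 510, 336 and 284 CPM per kb, most initiation factors lie below 60, and the libraries of the 2 genotypes lie close together for nearly every gene; Eif4e1b is not drawn.

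Reads of the general and the neuronal eEF1A form can be told apart by sequence. The coding sequences of Eef1a1 (1386 bases, chr9:78478449-78489151, minus strand of GRCm38) and Eef1a2 (1389 bases, chr2:181147653-181157014, minus strand) were 79.9% identical in GENCODE M21 and shared no run of 50 bases. The first 90 coding bases are shown because they display the spread of the differences, with the 15 differing bases in capitals.
Eef1a1: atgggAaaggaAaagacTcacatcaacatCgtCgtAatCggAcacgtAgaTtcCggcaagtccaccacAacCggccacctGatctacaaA
Eef1a2: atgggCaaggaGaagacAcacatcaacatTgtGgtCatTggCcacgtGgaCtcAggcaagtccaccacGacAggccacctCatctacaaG
Eef1a1 was less separable from other loci. Of the 50-base windows of its transcripts, 60.6% also occur in transcripts of other genes, among them 18 pseudogenes, while for Eef1a2 the share was 0. Reads from such windows can map to several places and then drop out of the gene counts, so the level of Eef1a1 is uncertain and may be understated beside that of Eef1a2.

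In the eEF1 complex 4 of 5 genes had a KO mean above the WT mean, and 3 had an unadjusted p under 0.05, beside 56.2% and 6.05% in the protein-coding autosomal class. Of these 3, Eef1d alone kept it with the GC correction. Eef1a1, the general tRNA carrier, was at 1211, 1318 and 1206 CPM in WT and at 1306, 1252 and 1331 CPM in KO. The genotypes overlapped, since WT library 2 lay among the KO libraries, and the log2 fold change was 0.058 (SE 0.0443; edgeR adjusted p = 0.773). It was 0.10 without WT library 2 and 0.037 without WT library 3. Without WT library 2, Eef1a1 had an unadjusted p under 0.05 and Eef1a2 did not. Eef1a2, the neuronal and muscle form, was at 680, 643 and 700 CPM in WT and at 710, 747 and 728 CPM in KO. All KO libraries were above all WT libraries, by 8.02% on average, with a log2 fold change of 0.11 (SE 0.0425; unadjusted p = 0.0231, edgeR adjusted p = 0.593). With the correction for GC content it was 0.013 (unadjusted p = 0.78). Its transcript has the highest GC content of the members, at 60.6%.

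The remaining eEF1 subunits reload eEF1A with GTP. Eef1d (chr15:75894205-75909556), an exchange factor subunit, was at 51.4, 45.3 and 46.4 CPM in WT and at 52.5, 57.8 and 56.1 CPM in KO. Its log2 fold change of 0.22 (SE 0.0625; unadjusted p = 0.00497, edgeR adjusted p = 0.576) was 0.15 with the GC correction, and the lowest KO library lay just above the highest WT library. Eef1g (chr19:8967041-8978479), the subunit that anchors the exchange factors, was at 154, 141 and 159 CPM in WT and at 161, 163 and 170 CPM in KO. Its log2 fold change was 0.12 (SE 0.0521; unadjusted p = 0.0395, edgeR adjusted p = 0.622), and 64.3% of its 50-base windows are shared with other genes. It was 0.073 without WT library 2, where its unadjusted p was no longer under 0.05, and 0.096 with the GC correction (unadjusted p = 0.0926). Eef1b2, the other exchange factor, showed no such separation, with 52.7 ± 0.44 CPM in WT against 52.5 ± 3.10 CPM in KO (SD, n = 3).

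Eef2, the translocase (chr10:81176631-81182498, plus strand), had the smallest p-value of the members. It was at 934, 866 and 884 CPM in WT and at 1007, 978 and 986 CPM in KO. The KO libraries lay above all WT libraries by 10.7% on average, and the log2 fold change was 0.15 (SE 0.0398; unadjusted p = 0.00336, edgeR adjusted p = 0.576). With the GC correction the value was 0.074 (unadjusted p = 0.0924). Eef2k, the kinase that inhibits eEF2, was at 61.5 ± 4.69 CPM in WT against 64.8 ± 1.73 CPM in KO (SD, n = 3), and its libraries overlapped.

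**Figure D3:**
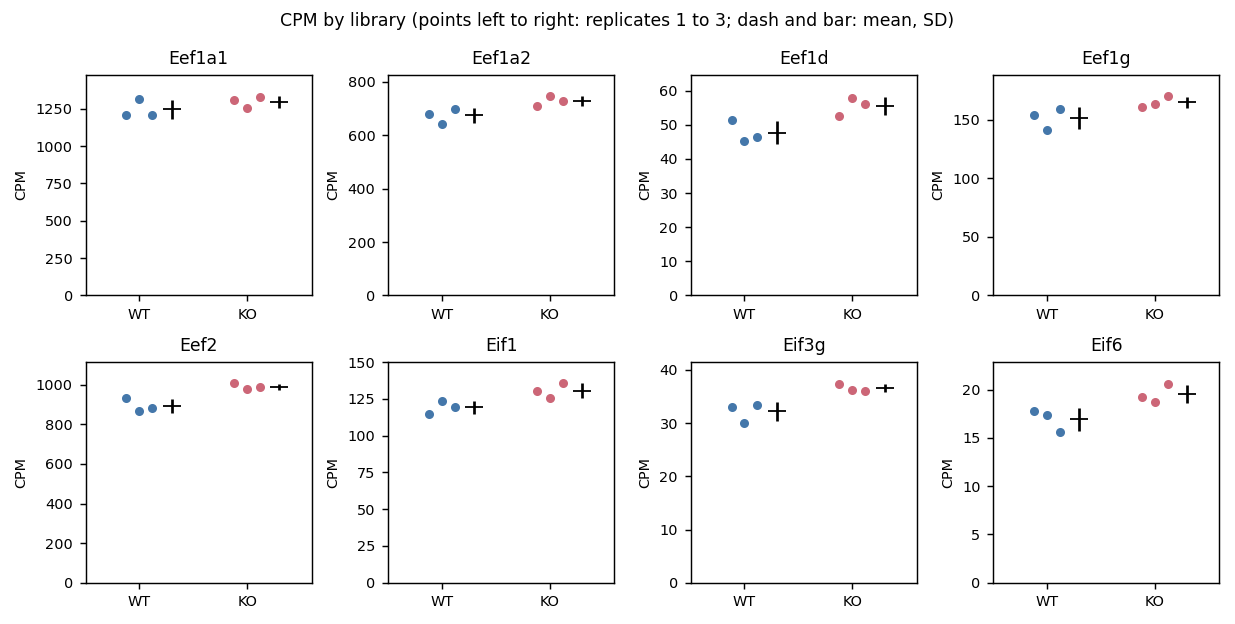
CPM of 8 translation factors in each library (points, left to right replicates 1 to 3) with mean and SD beside them, WT in blue and KO in red, axes starting at 0. In all panels but that of Eef1a1, the KO points lie above the WT points, as for Eef2, with WT from 866 to 934 and KO from 978 to 1007; the gap between the groups is small beside the level itself.

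The balance between the eEF1A forms was then compared as the ratio of their levels per length in each library. Eef1a2 over Eef1a1 was 0.672, 0.584 and 0.694 in WT and 0.650, 0.714 and 0.654 in KO. The groups overlapped, with WT library 2 lowest and KO library 2 highest. The mean ratio was 0.650 ± 0.0583 in WT and 0.673 ± 0.0354 in KO (SD, n = 3). The log2 difference was 0.053 (two-sided exact permutation test, p = 0.7), where 3 against 3 libraries cannot give less than 0.1. Eef1a2 made up between 36.9% and 41.6% of the summed level of the pair. Its WT share rests on the length used, since the ratio was 0.468 with the length of the longest coding transcript in place of all exons. The sign of the difference also turned, to -0.061, with the GC correction, and to -0.023 without WT library 2.

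The methyltransferases that modify lysines of eEF1A and eEF2 spanned a wide range. Eef1akmt2 and Eef1akmt1 were at 12.1 and 8.95 CPM per kb, among the levels of many initiation factors, while Eef1akmt3 was the lowest of the tested members at 0.126 CPM per kb. Eef1akmt3 (chr10:127031004-127041513) was the 1 member with all KO libraries below all WT libraries after scaling, at 0.440, 0.383 and 0.425 CPM in WT and 0.374, 0.267 and 0.166 CPM in KO. These values rest on 16, 12 and 14 counts in WT and 13, 9 and 6 counts in KO, which overlap before scaling. Its log2 fold change of -0.63 has a standard error of 0.352 (edgeR adjusted p = 0.684), and without KO library 1 or KO library 3 it ranged from -0.94 to -0.37. Eef2kmt and Eef1akmt4 had log2 fold changes of 0.31 and 0.35 with standard errors of 0.184 and 0.345, from levels under 5 CPM in all libraries.

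Start codon selection is the task of eIF1 and eIF1A. Eif1 (chr11:100319885-100322096) was at 115, 124 and 120 CPM in WT and at 130, 125 and 135 CPM in KO. The groups did not overlap, and the log2 fold change was 0.13 (SE 0.0486; unadjusted p = 0.0225, edgeR adjusted p = 0.593). It was 0.12 with the GC correction (unadjusted p = 0.0307), so Eif1 moved least among the 7 under that correction. Without WT library 1, and without KO library 3, its unadjusted p was no longer under 0.05. Transcripts of 17 pseudogenes share 50-base windows with Eif1, and 31.6% of its windows are shared with other genes. The related Eif1b was at 36.3 ± 3.51 CPM in WT against 39.3 ± 3.41 CPM in KO (SD, n = 3), with overlapping libraries, and Eif1a and Eif1ad had log2 fold changes of -0.037 and -0.026. With the GC correction Eif1a was 0.035 and Eif1ad -0.031.

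Of the subunits of eIF2 itself only the beta subunit, Eif2s2, is a member, beside Eif2a and Eif2d, proteins that can deliver initiator tRNA in its place. Eif2s2 was at 51.5 ± 1.48 CPM in WT against 51.4 ± 2.63 CPM in KO (SD, n = 3). The log2 fold changes of Eif2s2, Eif2a and Eif2d were -0.0030, -0.042 and 0.035, with a standard error of at most 0.0654. The 5 genes of eIF2B, the exchange factor that recharges eIF2 and that eIF2 phosphorylation inhibits, ran from -0.0030 for Eif2b3 to 0.13 for Eif2b2. Eif2b5, the catalytic subunit and the highest of them per length, was at 46.3 ± 1.88 CPM in WT against 47.1 ± 0.205 CPM in KO (SD, n = 3). Eif2b2 was at 17.6, 17.5 and 16.5 CPM in WT and at 17.9, 19.7 and 18.98 CPM in KO, without overlap (unadjusted p = 0.0783, edgeR adjusted p = 0.655), and its value was 0.079 with the GC correction.

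eIF3 is the large scaffold that keeps the small subunit open for mRNA. Of its 14 genes 10 had a KO mean above the WT mean, 1 had an unadjusted p under 0.05, and 11 lay within 0.1 on the log2 scale. With 4 separated upward, these counts stand beside 56.2% above 0, 6.05% higher at an unadjusted p under 0.05 and 9.505% separated in the protein-coding autosomal class. Eif3g (chr9:20894349-20898623), an RNA-binding subunit, was at 33.0, 30.1 and 33.5 CPM in WT and at 37.4, 36.2 and 36.1 CPM in KO. The groups did not overlap, with KO 13.6% above WT, and the log2 fold change was 0.18 (SE 0.0591; unadjusted p = 0.00946, edgeR adjusted p = 0.576). It was 0.12 with the GC correction (unadjusted p = 0.0753). Eif3b, Eif3f and Eif3i, named after their values were seen, also had no overlap, with log2 fold changes of 0.11, 0.11 and 0.095, which were 0.045, 0.11 and 0.061 with the GC correction. The lowest value of the complex was -0.063 for Eif3e, which turned to 0.0065 with that correction. Levels per length differed widely for subunits of 1 complex, from 49.0 CPM per kb for Eif3c to 6.49 for Eif3j1, and 0.202 for Eif3j2, a copy in a single exon on chromosome 18. This order was not tested, and shared sequence touches it: 91.8% of the windows of Eif3j2 and 54.8% of those of Eif3j1 occur in other genes.

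Eif4e, which binds the cap, was at 97.0 ± 5.25 CPM in WT against 93.6 ± 2.96 CPM in KO, and Eif4ebp2, the eIF4E repressor known as the main one of brain, at 63.9 ± 0.66 CPM in WT against 69.2 ± 5.44 CPM in KO (SD, n = 3). Both overlapped between groups, with log2 fold changes of -0.051 and 0.11. Leaving out 1 library, Eif4e ran from -0.093 (without WT library 2) to -0.017 (without WT library 3). Eif4ebp2 ran from 0.062 (without KO library 2) to 0.17 (without KO library 1, where its unadjusted p was under 0.05). Eif4ebp3, a repressor near 1 CPM, was at 0.901 ± 0.122 CPM in WT against 1.09 ± 0.122 CPM in KO (SD, n = 3). On the log2 scale the difference was 0.27, with a standard error of 0.213 and an edgeR adjusted p of 0.781. The scaffolds Eif4g1, Eif4g2 and Eif4g3 were at 0.063, -0.017 and -0.0028 on that scale, with standard errors from 0.0386 to 0.046. Eif4g1 was 0.016 with the GC correction, and 0.031 without WT library 2 and 0.10 without WT library 3. Of the 5 genes of the helicase group 2 were separated upward, Eif4a1 and Eif4h, beside 9.505% of the protein-coding autosomal class. Eif4a1 was only just so, with the highest WT library at 140.96 CPM and the lowest KO library at 141.02 CPM. Its log2 fold change was 0.045 (edgeR unadjusted p = 0.306). Eif4h, a cofactor that stimulates eIF4A, was at 212, 210 and 210 CPM in WT and at 232, 218 and 222 CPM in KO (log2 fold change 0.087, unadjusted p = 0.0574, edgeR adjusted p = 0.628). With the GC correction it was 0.029 (unadjusted p = 0.501). Eif4e1b, an eIF4E paralog known from oocytes, had 1 count in WT library 1 and 0 in the other libraries and was the 1 member the filter on low counts removed.

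The last steps join the large subunit. Eif6 (chr2:155819832-155826925), which keeps free large subunits from joining too early, was at 17.8, 17.4 and 15.6 CPM in WT and at 19.3, 18.7 and 20.6 CPM in KO. The KO libraries lay above the WT libraries by 15.2% on average, and the log2 fold change was 0.20 (SE 0.0751; unadjusted p = 0.0191, edgeR adjusted p = 0.581). With the GC correction it was 0.13 (unadjusted p = 0.0906). Eif5, the GTPase activator of eIF2, and Eif5b, the GTPase of subunit joining, had log2 fold changes of -0.093 and -0.024, which were -0.034 and 0.020 with the GC correction. Eif5a, which carries the amino acid hypusine and relieves stalled ribosomes, was at 124 ± 11.2 CPM in WT against 129 ± 1.98 CPM in KO (SD, n = 3). Its paralog Eif5a2 had a log2 fold change of -0.11 (SE 0.0576; unadjusted p = 0.0704, edgeR adjusted p = 0.651), with KO library 1 inside the WT range of 60.5 to 63.7 CPM and the other KO libraries at 55.8 and 53.95 CPM. Its transcript has the lowest GC content of the members, at 38.8%, and with the GC correction its value was -0.032 (unadjusted p = 0.553).

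General and brain-rich forms were set side by side as ratios of levels per length in each library, as a description with no test. Eif4a2 exceeded Eif4a1 in all libraries, at 2.63 ± 0.128 times its level in WT and 2.48 ± 0.0885 times in KO (SD, n = 3), and 65.3% of the windows of Eif4a1 are shared with other genes. Eif5a2 stood at 0.237 ± 0.0266 of Eif5a in WT and 0.209 ± 0.0142 in KO. Eif1b stood at 0.568 ± 0.0631 of Eif1 in WT and 0.564 ± 0.0709 in KO. These levels depend on the length used: with the longest coding transcript in place of all exons, the 3 mean WT ratios were 2.12, 0.143 and 0.389. For each of these 3 pairs the WT and KO ranges overlapped. As for eEF1A, the coding sequences of these 3 pairs are alike but separable, with identities of 77.6%, 72.3% and 81.1% and no shared run of 50 bases. Among the eIF4G genes, Eif4g3 over Eif4g1 was 0.763 ± 0.0345 in WT and 0.728 ± 0.00363 in KO. Every KO library was below every WT library, but only just, with WT library 3 at 0.733 and KO library 3 at 0.730. No background share of separated ratios was computed. With the GC correction the log2 fold changes were -0.023 for Eif4g3 and 0.016 for Eif4g1, against -0.0028 and 0.063 without it. Eif4g2 over Eif4g1 and Eif4ebp3 over Eif4ebp2 overlapped between genotypes. Eif4ebp3, with 65.5% of its windows shared with another gene, was 0.110 ± 0.015 of Eif4ebp2 in WT and 0.122 ± 0.00602 in KO.

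The members differed with the GC content of their transcripts, as did all genes. Over all genes tested, the median log2 fold change was -0.058 for transcripts under 45% GC (6223 genes), -0.016 from 45% to 50%, 0.030 from 50% to 55% and 0.080 at 55% or more (4369 genes). Among the members, 1 of 15 was above 0 in the lowest range, 6 of 9 and 20 of 24 in the next ranges, and 9 of 9 in the highest. The member medians in the same order were -0.024, 0.045, 0.054 and 0.13, each above the median of all genes in its range. Of the 7 members with an unadjusted p under 0.05, 5 had a GC content of 55% or more and 2 lay between 50% and 55%. With the correction 18 of 57 members changed sign, 14 of them to above 0, all from values within 0.063 of 0. With it the median over the members was 0.034, while the 7 values ran from 0.013 for Eef1a2 to 0.15 for Eef1d. Whether the GC pattern arose in the tissue or in the making of the libraries was not tested.

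**Figure D4:**
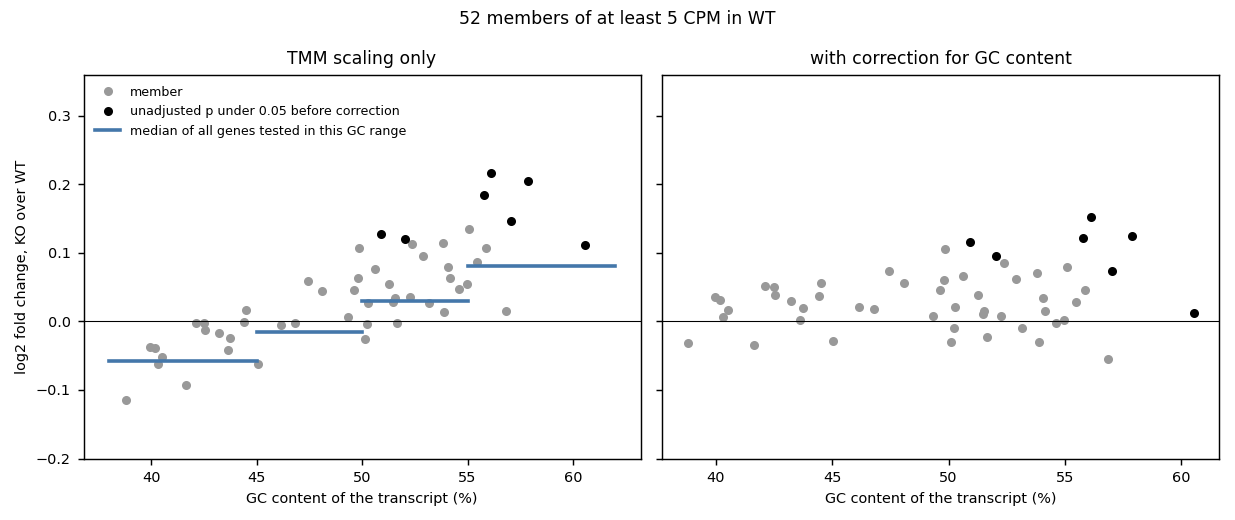
Log2 fold change, KO over WT, against the GC content of the transcript for the 52 members of at least 5 CPM in WT, as scaled by TMM (left) and with a correction for GC content (right); black points had an unadjusted p under 0.05 before correction, and blue lines give the median of all genes tested in each GC range. On the left the points climb with GC content as the blue lines do, and on the right they spread around and mostly just above 0.

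Many elongation factor mRNAs are known to begin with a terminal oligopyrimidine (TOP) tract, a C at the cap followed by pyrimidines, which ties their translation to mTORC1. The 9 members on a list of such mRNAs were Eef1a1, Eef1b2, Eef1d, Eef1g, Eef2, Eif3e, Eif3f, Eif3h and Eif4b. Of these, 7 had a KO mean above the WT mean, 3 had an unadjusted p under 0.05, 4 were separated upward and 0 were called, with a median log2 fold change of 0.058. In the protein-coding autosomal class 56.2% were above 0, 6.05% were higher at an unadjusted p under 0.05 and 9.505% were separated upward. Of the 3 genes, Eef2, Eef1d and Eef1g, only Eef1d had an unadjusted p under 0.05 with the GC correction. A tract was searched in the annotated 5′ ends, as a C followed by at least 4 bases that are each C or T, starting within the first 3 bases, on the transcript's strand. At least 1 coding transcript began so in 11 of 58 members (18.97%) and 3 of the 9 list members, against 12.8% of 20722 protein-coding autosomal genes. The members have more coding transcripts per gene than that class, 3.60 against 2.72, and over reference transcripts alone, 1 for each gene, the shares were 6.897% and 6.003%, with 1 of the 9 list members. The first 20 bases of 5 members are shown to set annotated starts with a tract, in capitals, beside starts without one. The starts of Eef1b2 and Eef1d with a tract belong to 1 of 2 and 1 of 15 coding transcripts and not to the reference transcript.
Eef1b2: CTTTTTTTCCCTCagcgctg
Eef1d: CTCTCCTTTgcagtcctgag
Eif3f: CTCTTTCTCggcaagatggc
Eef2: gttgacgtcagcggtctctt
Eef1a1: ttcccgagggtgggggagaa
These are the GENCODE M21 starts at chr1:63177130-63177149 for Eef1b2, chr15:75909287-75909306 for Eef1d, chr7:108934417-108934436 for Eif3f, chr10:81176631-81176650 for Eef2 and chr9:78481705-78481724 for Eef1a1, on GRCm38. Eef1b2, with the longest tract of these at 13 bases, had a log2 fold change of -0.0048, Eef1d had 0.22 and Eif3f 0.11.

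Small nucleolar RNA genes, which guide RNA modification, lie inside several members. Of the 58, 8 (13.8%) carry at least 1 on their own strand, namely Eif4a2 with 5, Eef1b2 and Eif4a1 with 3 each, Eif3a with 2, and Eef2, Eif4g1, Eif4g2 and Eif5 with 1 each. Among 20807 protein-coding autosomal genes 1.17% do. A read that overlaps exons of a host and of its guest gene on the same strand is counted for neither. The members were also split by sequence shared with other genes. Of 29 members with under 5% of their 50-base windows in other genes, 20 were above 0 and 2 had an unadjusted p under 0.05, and of 28 tested members with more, 16 were above 0 and 5 had an unadjusted p under 0.05. The class as a whole had 56.2% above 0 and 6.05% higher at an unadjusted p under 0.05.

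Other genes of the translation pathway were called in 0 cases. Their counts stand beside 56.2% of protein-coding autosomal genes above 0, 6.05% higher at an unadjusted p under 0.05 and 9.505% separated upward. Among 11 genes of mTORC1 signalling and the MNK kinases, 9 had a KO mean above the WT mean, 4 were separated upward and 1 had an unadjusted p under 0.05. It was Akt1s1, an inhibitory subunit of mTORC1, at 15.4 ± 1.25 CPM in WT against 18.2 ± 1.21 CPM in KO (SD, n = 3; log2 fold change 0.24, edgeR adjusted p = 0.579). Among 10 mitochondrial translation factors 6 were above 0 and 1 had an unadjusted p under 0.05, Tufm, the mitochondrial elongation factor Tu, at 34.1 ± 1.65 CPM in WT against 38.04 ± 1.949 CPM in KO (SD, n = 3; log2 fold change 0.16, edgeR adjusted p = 0.600). No gene had an unadjusted p under 0.05 among 7 of poly(A) binding (5 above 0), 5 of termination and recycling (1 above 0), 7 further initiation factors (4 above 0) and 9 of hypusine and diphthamide synthesis (4 above 0). The smallest p in those 4 lists belonged to Pabpc4 (log2 fold change 0.094), Gspt1 (-0.063), Abcf1 (0.12) and Dnajc24 (0.15), in the same order.

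The spread between libraries set the size of difference that could be seen. Among the 51 members of at least 10 CPM in WT, the median coefficient of variation between libraries was 3.90% in WT and 3.97% in KO. The median size of the difference between genotypes in these members was 3.49%, and 47 of the 51 differed by less than 10%. The median standard error of a log2 fold change over the members was 0.0583.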

How the data were processed

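The authors deposited whole-number counts per gene for 6 libraries, in the layout of STAR's gene counting. Per the submitters' processing notes, cutadapt 1.9.1 and STAR 2.7.0f were used, and per the labels the libraries came from total RNA over 200 bp prepared with TruSeq Total RNA. Genome build and annotation are not given in the sources used here. All 55450 gene identifiers match GENCODE M21 (GRCm38), which gave names, positions and transcript sequences. The last count column, with 94.6% to 94.8% of stranded counts, was used. Rows for unmapped, multimapping, ambiguous and unassigned reads stayed out.

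The filter was filterByExpr and the scaling TMM (edgeR 4.0.16, R 4.3.3), and 1 quasi-likelihood fit covered all 6 libraries and 21237 genes, tested two-sided. CPM uses TMM factors, and CPM per kb the union of exons. The GC correction was a lowess offset (span 0.3). The fit was tested on simulated data. Alternatives were the unstranded column, DESeq2 1.42.0 size factors and Wald test, total counts, other filters, limma 3.58.1 voom, a replicate block, GC correction, protein-coding genes alone and leaving out each library. Trmt1l, the eEF1A pair, members with an unadjusted p under 0.05, the highest and the smallest-p member of each role, paralog pairs and the smallest-p gene of each other list were named. The members and lists were chosen with earlier results of these data known.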

Additional observations from a re-analysis of the deposited data

How the results depend on the processing

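Of the members, 0 were called under all alternatives but 1: with no filter on low counts there were 2, Eef2 (log2 fold change 0.15, edgeR adjusted p = 0.0435) and Eef1d (0.22, edgeR adjusted p = 0.0498), and leaving out each library gave 0 to 0. With no filter 298 genes were called in all, where the main fit called 2. DESeq2 gave no adjusted p to 25 members. Members with an unadjusted p under 0.05 and higher in KO numbered 2 with the GC correction and 2 with the replicate block and GC correction together, and 5 to 8 without 1 library. Of the original 7, between 4 (without KO library 3) and 7 (without KO library 1) were among these, and Eef2, Eef1d and Eif3g were in all 6 cases. Those lower in KO numbered 0 to 3 without 1 library, 3 of them without KO library 1 (Eif5a2, Eif3e and Eef1akmt3) and 1 without KO library 3 (Eif5). The median over the members ranged from 0.021 (without WT library 3) to 0.043 (without KO library 3), and the members above 0 from 34 (mean count of at least 50, 53 members) to 46 (GC correction), and from 35 to 40 without 1 library. The log2 ratio of Eef1a2 to Eef1a1 turned to -0.061 with the GC correction and ranged from -0.023 to 0.10 without 1 library. The level of Eef1a2 over Eef1a1 in WT was 0.468 with the longest coding transcript as length.

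Members close to 0 changed sign under some alternatives, and none of these members was called under any alternative. With the GC correction 18 members did so, among them Eif3e (to 0.0065), Eif1a (0.035), Eif5b (0.020), Eef1b2 (0.021) and Eif2b3 (0.018). With the GC correction, and with the replicate block and GC correction, Eef1akmt2 was 0.039 and 0.042, Eif2a 0.0025 and 0.0027, Eif2b5 -0.010 and -0.0094, Eif2s2 0.051 and 0.051, Eif3j1 0.050 and 0.050, Eif3j2 0.048 and 0.052, Eif4a2 0.031 and 0.031, Eif4e 0.016 and 0.017, and Eif4g2 0.030 and 0.030. With no filter Eif2s2 was 0.0025, Eif3j1 0.0033 and Eif4g3 0.0027, and with the unstranded column Eif2s2 was 0.0071 and Eif4g3 0.0013. Without 1 library the values ran from -0.068 to 0.051 for Eef1akmt2, from -0.084 to 0.00028 for Eif2a, from -0.044 to 0.030 for Eif2s2, from -0.034 to 0.048 for Eif3j1, from -0.12 to 0.085 for Eif3j2, from -0.030 to 0.0062 for Eif4g2 and from -0.023 to 0.0098 for Eif4g3. Without 1 library, Eif1b also ran from 0.042 (without KO library 2) to 0.19 (without WT library 3), Eif5a from 0.0019 (without WT library 3) to 0.13 (without WT library 2) and Eif4ebp3 from 0.17 (without WT library 2) to 0.36 (without KO library 1). The cause was not tested. The replicate numbers did not pair the libraries, with correlations of 0.040, -0.031 and -0.058 between same-numbered libraries; with the replicate block alone, 7 members had an unadjusted p under 0.05 and 0 were called. Precision for the tested members under 1 CPM on average is limited by counts of 6 to 42 per library.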

Other observations

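Counts on the strand opposite to the genes were examined as a readout outside the comparison. Of the 58 members 22 had enough such counts to be tested among 10787 genes, and edgeR's quasi-likelihood test called 0, with 0 at an unadjusted p under 0.05. Over all those genes 3 (0.0278%) were called and 5.75% had an unadjusted p under 0.05, in either direction.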
